A study of Mus musculus with 48 samples.

Results

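Amino acid catabolism and urea cycle genes were followed in the liver of mice that lacked or kept p110α in hepatocytes, on 2 diets and in 2 nutritional states. The genes are 40 enzymes and carriers that dispose of amino acids and their nitrogen, chosen by name and function, with 1 array probe each (the brightest on average where a gene has several). All 40 were on the array, out of 20486 genes tested. p110α is the catalytic subunit of phosphoinositide 3-kinase encoded by *Pik3ca*, which relays the insulin signal. Male p110αhep−/− mice carried floxed *Pik3ca* alleles and a Cre recombinase driven by the albumin promoter, so that the deletion is made in hepatocytes, and male p110αhep+/+ littermates carried the same floxed alleles without Cre. Both genotypes were on a C57BL/6J background, received either a control diet (CTRL diet) or a high-fat diet (HFD, 60% of calories from fat) for 12 weeks from the age of 12 weeks, and were killed at ZT16 either fed ad libitum or fasted for 24 h. Each of the 8 groups had 6 mice, each mouse with its own one-colour Agilent array, which makes 48 arrays.

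The liver is the main site where amino acids are broken down. Their amino groups are passed on by aminotransferases, and ammonia is fixed in mitochondria and turned into urea, while the carbon skeletons feed gluconeogenesis, ketone body formation or the citric acid cycle. During fasting, glucagon and glucocorticoids are known to raise many of these enzymes and insulin to hold them down. Several enzymes, among them those of the urea cycle, are found mainly in periportal hepatocytes.

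Levels below are log2 of the normalized median signal of a probe, given as the lowest to the highest and the median of 6 mice, and a difference is a log2 fold change from limma with its standard error (SE). The signal of a probe cannot be set against that of another probe, so levels are compared only within a gene. A gene was called when its p, adjusted over all probes kept, was at most 0.05. All 40 genes were well above background on all 6 arrays of every group. Of 6 hepatocyte marker genes, 5 had a probe that was kept, and their summed level lay between 20.02 and 20.29 on the log2 scale over all arrays. The *Pik3ca* probe was not lower in p110αhep−/− mice: in fed mice on CTRL diet, its level was 13.02–13.33 (median 13.26) in p110αhep−/− mice and 12.79–13.09 (median 12.87) in p110αhep+/+ mice, with a difference of 0.39 ± 0.08 (SE, adjusted p = 0.00042). The p110αhep−/− and p110αhep+/+ mice had 13.08–13.56 and 12.58–12.99 when fed on HFD, 13.27–13.55 and 13.09–13.44 when fasted on CTRL diet, and 13.31–13.71 and 12.95–13.45 when fasted on HFD. Whether the probe lies in the floxed exons was not determined here, so it does not check the labels. The study checked the deletion by PCR on liver DNA and by the p110α protein in liver, and both ran the way of the labels. The protein was measured in mice of other experiments, with insulin injection or refeeding. The paper does not state that the PCR was made on the livers used here, so the labels of these arrays were taken as given. Over all genes, 2 arrays were nearer to the mean of another group than to that of their own: replicate 3 of fed p110αhep−/− mice on HFD and replicate 2 of fed p110αhep+/+ mice on CTRL diet, both nearer to fed p110αhep−/− mice on CTRL diet. Each was left out in turn, as were replicate 1 of fasted p110αhep+/+ mice on HFD and replicate 6 of fasted p110αhep−/− mice on HFD, each with the lowest mean over the 40 genes in its group, and calls given below that depend on 1 of these 4 arrays are named. In whole liver RNA, fewer cells of a type and less RNA per cell cannot be told apart.

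The first comparison asks how hepatocyte p110α bears on these genes in the fed state, when insulin signals. In fed mice on HFD, 25 of the 40 genes were higher in p110αhep−/− than in p110αhep+/+ mice and 1, *Gpt2*, was lower, while 14 were not called. The background in that comparison was 16.6% of all genes called higher and 16.3% called lower. The median difference of the 40 genes was 0.35, beside 0.03 over all genes, and 12 of the 25 exceeded a fold change of 1.5. Over all genes, 2.2% were called higher by more than 1.5-fold. The levels of the 2 genotypes did not overlap for 15 of the 40 genes, against 13% of all genes. On CTRL diet, 15 genes were higher and 3 lower in fed p110αhep−/− mice (10.9% and 10.6% of all genes), with a median of 0.21 and 3 genes above 1.5-fold (1.53% of all genes). On both diets, more of the 40 genes were higher than lower in fed p110αhep−/− mice. These counts were little changed by leaving out either array named above: 25 and 26 genes were called on HFD, and 19 in both cases on CTRL diet.

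**Figure D1:**
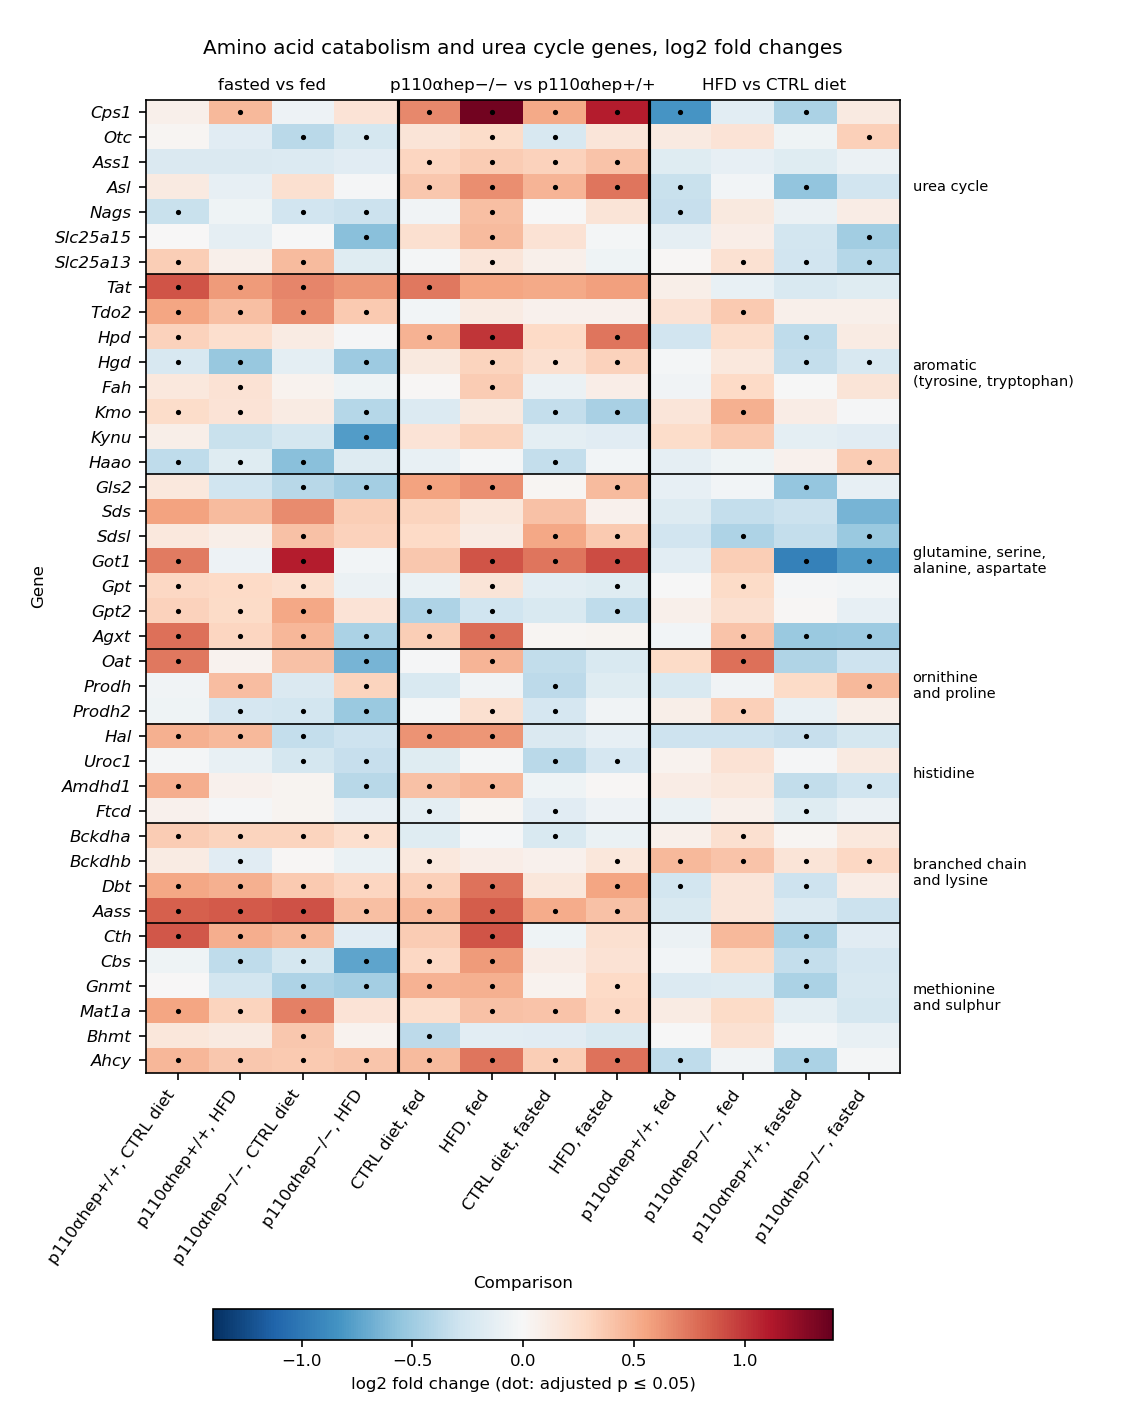
Log2 fold changes of 39 of the 40 genes (rows, grouped by pathway) in 12 comparisons (columns): 4 of fasted against fed, 4 of p110αhep−/− against p110αhep+/+ mice and 4 of HFD against CTRL diet, each of 6 against 6 mice, with red for higher, blue for lower and a dot for an adjusted p of at most 0.05. The columns of fed mice on HFD (genotype) and of fasted p110αhep+/+ mice (diet) hold mostly 1 colour: 25 genes higher and 1 lower in the first, 1 higher and 16 lower in the second.

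**Figure D2:**
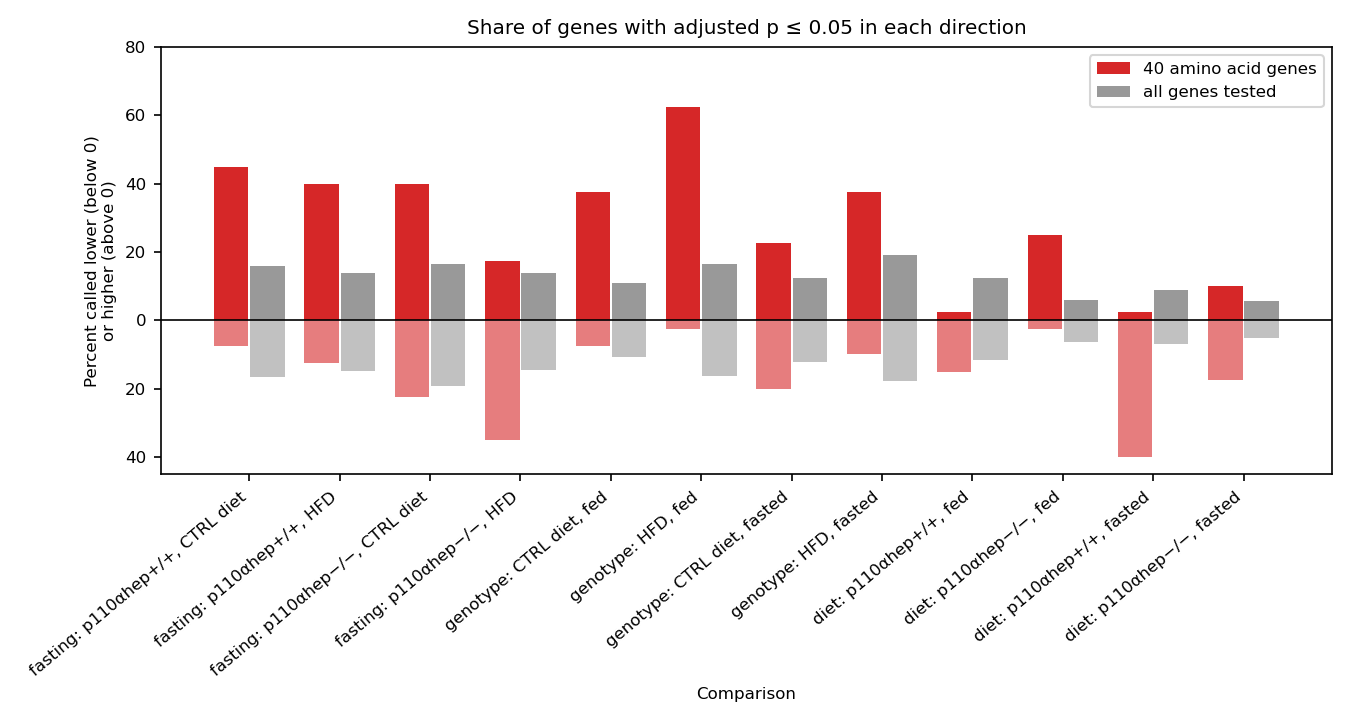
Percent of the 40 amino acid genes (red) and of all 20486 genes tested (grey) called higher (above 0) or lower (below 0, paler) in the 12 comparisons, with an adjusted p of at most 0.05. For the genotype in fed mice on HFD, 62.5% of the 40 genes were higher, beside 16.6% of all genes.

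Among the 8 urea cycle genes, 7 were higher in fed p110αhep−/− mice on HFD and none was lower, beside 16.6% and 16.3% of all genes. *Cps1*, which makes carbamoyl phosphate from ammonia in the first and rate-controlling step, differed most of the 40 genes. Its level was 14.78–15.09 (median 14.90) in fed p110αhep−/− and 13.16–13.72 (median 13.65) in fed p110αhep+/+ mice on HFD (probe at chr1:67276029-67276088, mm9). All 6 p110αhep−/− mice were above all 6 p110αhep+/+ mice, by 1.36 ± 0.13 (SE, adjusted p = 4.2e-11), a 2.56-fold higher level, with 1.47 in the first and 1.26 in the second of the 2 washing batches (3 mice a group each). On CTRL diet, fed p110αhep−/− mice had 14.94–15.24 (median 15.03) and fed p110αhep+/+ mice 13.88–14.85 (median 14.41), again without overlap, a difference of 0.68 ± 0.13 (SE, adjusted p = 0.00015). The level in p110αhep+/+ mice was lower on HFD than on CTRL diet by more than the spread of the mice, at -0.82 ± 0.12 (SE, adjusted p = 2.8e-06), while in p110αhep−/− mice HFD and CTRL diet differed by -0.14 ± 0.14 (SE, adjusted p = 0.58). The difference between these 2 diet effects was 0.68 ± 0.18 (SE, adjusted p = 0.034), and it was no longer called without replicate 2 of fed p110αhep+/+ mice on CTRL diet (0.62, adjusted p = 0.056). Fasted p110αhep−/− mice had 14.74–15.10 (median 14.97) on CTRL diet and 14.79–15.34 (median 15.09) on HFD, and fasted p110αhep+/+ mice 14.12–14.74 (median 14.39) and 13.28–14.34 (median 14.13). These overlapped at 1 end on CTRL diet and did not overlap on HFD, and the genotype difference was 0.53 ± 0.12 on CTRL diet and 1.10 ± 0.13 on HFD. Fasting itself raised *Cps1* in 1 combination, p110αhep+/+ mice on HFD (0.45 ± 0.12 SE, adjusted p = 0.0039), and *Cps1* was called higher in p110αhep−/− mice in all 4 combinations of diet and state.

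*Ass1* and *Asl*, the enzymes that make and cleave argininosuccinate in the cytosol, were also called higher in p110αhep−/− mice in all 4 combinations. *Asl* was 14.64–15.15 (median 14.81) in fed p110αhep−/− and 14.05–14.44 (median 14.22) in fed p110αhep+/+ mice on HFD (probe at chr5:130487513-130487736, mm9). These did not overlap, and the difference was 0.65 ± 0.11 (SE, adjusted p = 2.0e-05). It was 0.37 in fed mice on CTRL diet (14.73–15.14 against 14.24–14.79), 0.48 in fasted mice on CTRL diet (14.92–15.25 against 14.38–14.83) and 0.75 in fasted mice on HFD (14.34–15.15 against 13.49–14.45). The other *Asl* probe kept was called in none of these 4 comparisons, at -0.11 (adjusted p = 0.81) in fed mice on HFD and 0.59, 0.18 and 0.28 in the others. The steps of *Ass1* were smaller. Its level in fed mice was 17.71–17.96 (median 17.80) in p110αhep−/− and 17.32–17.69 (median 17.55) in p110αhep+/+ mice on CTRL diet, and 17.52–17.99 (median 17.73) and 17.18–17.52 (median 17.37) on HFD, without overlap on either diet. In fasted mice, it was 17.20–17.83 and 17.11–17.47 on CTRL diet, and 17.29–17.78 and 16.75–17.38 on HFD, and both pairs overlapped. The genotype difference of *Ass1* lay between 0.30 and 0.40 over the 4 combinations, and it was called in no comparison of fasting or diet.

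*Otc*, which joins carbamoyl phosphate to ornithine, followed the genotype less closely. *Otc* was 14.04–14.28 (median 14.10) in fed p110αhep−/− and 13.65–14.05 (median 13.87) in fed p110αhep+/+ mice on HFD, which overlapped at 1 end, with a difference of 0.26 ± 0.08 (SE, adjusted p = 0.016). In fasted mice on CTRL diet the direction was the opposite, with 13.06–13.71 (median 13.62) in p110αhep−/− and 13.66–13.94 (median 13.74) in p110αhep+/+ mice and a difference of -0.22 ± 0.08 (SE, adjusted p = 0.037). The other 2 pairs of *Otc* were 13.73–13.98 against 13.60–13.93 in fed mice on CTRL diet and 13.66–14.10 against 13.45–13.91 in fasted mice on HFD, neither of them called. Fasting lowered *Otc* in p110αhep−/− mice on CTRL diet by more than the spread of the mice (-0.38 ± 0.08 SE, adjusted p = 0.00026), and the effect of fasting there differed from that in p110αhep+/+ mice by -0.41 ± 0.11 (SE, adjusted p = 0.036). In the other *Otc* probe kept, this effect of fasting was -0.04 (adjusted p = 0.83) and the genotype difference in fasted mice on CTRL diet -0.07 (adjusted p = 0.69), neither of them called.

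*Nags*, whose product N-acetylglutamate activates the enzyme encoded by *Cps1*, was higher in fed p110αhep−/− mice on HFD (0.42 ± 0.07 SE, adjusted p = 1.8e-05). It was lowered by HFD in fed p110αhep+/+ mice (-0.33), and the diet effects of the genotypes differed (0.47 ± 0.10 SE, adjusted p = 0.0092). The ornithine carrier *Slc25a15* and the aspartate-glutamate carrier *Slc25a13* were both higher in fed p110αhep−/− mice on HFD, by 0.44 and 0.17. *Slc25a13* depended more on fasting and diet together. On CTRL diet it was 13.48–13.68 in fed and 13.82–13.97 in fasted p110αhep+/+ mice, and 13.42–13.77 in fed and 13.84–14.19 in fasted p110αhep−/− mice, so fasting raised it without overlap in both genotypes. On HFD the ranges were 13.54–13.72 and 13.51–13.79 in p110αhep+/+ mice and 13.46–13.94 and 13.45–13.80 in p110αhep−/− mice, and neither difference was called.

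**Figure D3:**
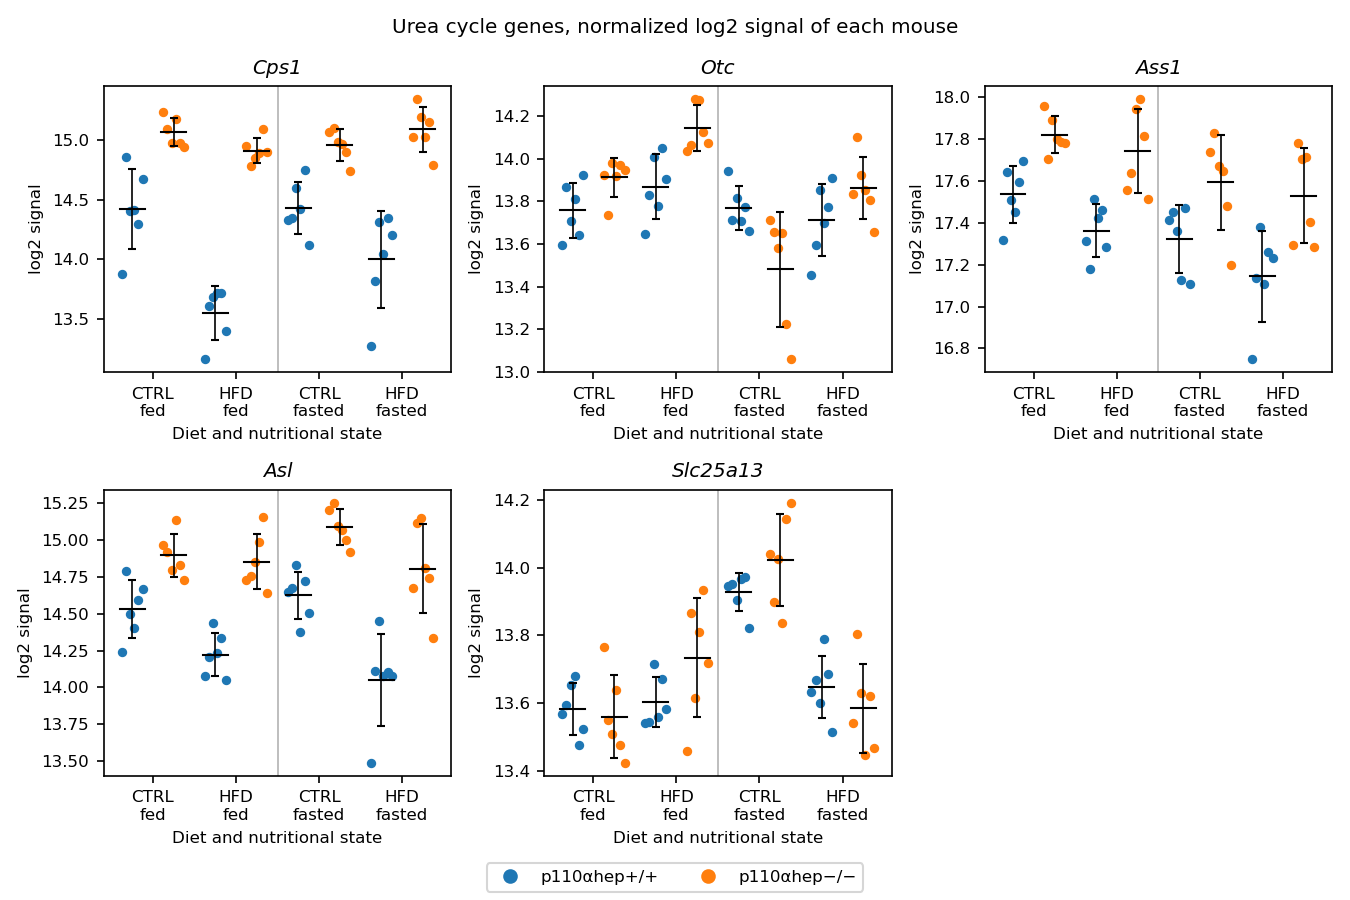
Normalized log2 signal of each mouse (points) for 5 urea cycle genes by diet and nutritional state, with p110αhep+/+ mice in blue and p110αhep−/− mice in orange. Lines are means and bars are SDs of 6 mice. For *Cps1* in fed mice, all p110αhep−/− mice lie above all p110αhep+/+ mice on the same diet, and on HFD the p110αhep+/+ mice reach at most 13.72.

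Among the enzymes of tyrosine breakdown, *Hpd* and *Tat* were higher in fed p110αhep−/− mice on CTRL diet and *Hpd*, *Hgd* and *Fah* on HFD. *Hpd*, which turns 4-hydroxyphenylpyruvate into homogentisate, was 16.24–16.92 (median 16.78) in fed p110αhep−/− and 15.36–16.07 (median 15.71) in fed p110αhep+/+ mice on HFD (probe at chr5:123622237-123624360, mm9), without overlap, a difference of 1.01 ± 0.11 (SE, adjusted p = 3.2e-09). Within the 2 washing batches it was 1.24 and 0.66. On CTRL diet the ranges in fed mice were 16.26–16.69 and 15.75–16.21, also without overlap, and the difference was 0.49 ± 0.11 (SE, adjusted p = 0.0015). In fasted mice, *Hpd* was 16.52–16.87 in p110αhep−/− and 15.33–16.37 in p110αhep+/+ mice on HFD (0.75, called), and 16.30–16.72 and 16.06–16.38 on CTRL diet (0.28, not called). *Hgd*, the next enzyme, was called higher in 3 of the 4 combinations, with the largest difference at 0.33, and *Fah*, the last, only in fed mice on HFD (0.35).

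*Tat*, the aminotransferase that starts tyrosine breakdown, varied widely between mice. In fed mice on CTRL diet, it was 15.37–15.94 (median 15.53) in p110αhep−/− and 14.48–15.13 (median 14.84) in p110αhep+/+ mice, without overlap, and it differed by 0.73 ± 0.25 (SE, adjusted p = 0.028). In fed mice on HFD the ranges were 14.88–16.39 and 14.25–15.65, in fasted mice on CTRL diet 15.29–16.60 and 15.35–16.08, and in fasted mice on HFD 14.56–16.45 and 14.73–16.08. None of those 3 was called, with differences of 0.55, 0.53 and 0.57. The 4 genes of the kynurenine pathway of tryptophan among the 40 were not called higher in p110αhep−/− mice in any of the 4 combinations: *Kmo* was lower in fasted mice on both diets (-0.33 and -0.45), *Haao* was lower in fasted mice on CTRL diet (-0.33), and *Tdo2* and *Kynu* were not called. In the other *Haao* probe kept, the difference in fasted mice on CTRL diet was 0.07 and not called (adjusted p = 0.72).

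Of the 6 methionine and sulphur genes, 5 were higher in fed p110αhep−/− mice on HFD, beside 16.6% of all genes. *Cth* (probe at chr3:157557667-157557726, mm9), which releases cysteine from cystathionine, was 13.88–14.32 (median 14.13) in p110αhep−/− and 12.94–13.75 (median 13.15) in p110αhep+/+ mice, without overlap, a difference of 0.88 ± 0.15 (SE, adjusted p = 1.1e-05). On CTRL diet the fed ranges were 13.57–13.83 and 13.13–13.54, which did not overlap, and the difference of 0.35 was not called (adjusted p = 0.089). The genotypes overlapped after fasting, with 13.91–14.34 and 13.86–14.42 on CTRL diet and 13.36–14.70 and 12.92–14.17 on HFD. *Ahcy*, which hydrolyses S-adenosylhomocysteine, was called higher in p110αhep−/− mice in all 4 combinations, by 0.44 and 0.75 in fed mice and 0.35 and 0.76 in fasted mice on CTRL diet and HFD. The others called in fed mice on HFD were *Cbs* (0.59), *Gnmt* (0.50) and *Mat1a* (0.41), while *Bhmt*, the betaine-dependent methyltransferase, had a difference of -0.14 and was lower in fed mice on CTRL diet (-0.37).

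*Aass*, the first enzyme of lysine breakdown, was higher in p110αhep−/− mice in all 4 combinations. It was 15.01–15.73 (median 15.33) in fed p110αhep−/− and 14.33–14.70 (median 14.47) in fed p110αhep+/+ mice on HFD (probe at chr6:23022668-23022727, mm9), without overlap, and the difference was 0.85 ± 0.14 (SE, adjusted p = 4.6e-06). The fed ranges on CTRL diet were 14.96–15.27 and 14.29–15.03 (0.47), and the fasted ranges were 15.30–16.29 and 15.30–15.77 on CTRL diet (0.52) and 15.23–16.08 and 14.69–15.73 on HFD (0.41). The last of these was no longer called without replicate 1 of fasted p110αhep+/+ mice on HFD (0.32, adjusted p = 0.066). *Dbt*, the acyltransferase core of the branched chain 2-oxoacid dehydrogenase, was higher in fed mice on both diets (0.34 and 0.76) and in fasted mice on HFD (0.55). Its partners *Bckdha* and *Bckdhb*, the subunits of the decarboxylase, differed by -0.02 and 0.09 in fed mice on HFD, and neither was called there. *Bckdhb* was called higher in fed mice on CTRL diet (0.15) and in fasted mice on HFD (0.16), the first lost without any 1 of 3 of the 4 arrays left out (adjusted p between 0.053 and 0.07).

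Aminotransferases did not move as 1 group. *Got1*, the cytosolic aspartate aminotransferase, was higher in p110αhep−/− mice in 3 of the 4 combinations. It was 14.47–15.56 (median 14.79) in fed p110αhep−/− and 13.58–14.26 (median 13.96) in fed p110αhep+/+ mice on HFD (probe at chr19:43574278-43574337, mm9), without overlap, at 0.88 ± 0.24 (SE, adjusted p = 0.004). In fasted mice the ranges were wide and overlapped, with 14.83–15.94 and 14.00–15.17 on CTRL diet (0.75), and 13.56–15.31 and 12.86–14.81 on HFD (0.91). The fasted difference on HFD was 1.74 within the first washing batch and 0.23 within the second, where it was not called. Fed mice on CTRL diet had 14.13–14.74 and 13.62–14.49, and the difference of 0.38 was not called. *Agxt*, which transfers the amino group of alanine to glyoxylate, was higher in fed p110αhep−/− mice on both diets. The difference was 0.35 ± 0.11 (SE, adjusted p = 0.018) on CTRL diet and 0.78 ± 0.11 (SE, adjusted p = 2.3e-07) on HFD, with differences of 0.03 and 0.04 in fasted mice. The alanine aminotransferase *Gpt2* was lower in p110αhep−/− mice in 3 combinations, by -0.44 and -0.28 in fed mice and -0.35 in fasted mice on HFD. The call in fed mice on HFD was lost without replicate 3 of fed p110αhep−/− mice on HFD (-0.25, adjusted p = 0.067). *Gls2*, the liver glutaminase that frees ammonia for the urea cycle, was higher in fed p110αhep−/− mice on both diets (0.56 and 0.64) and in fasted mice on HFD (0.45). *Sds*, the serine dehydratase, had the widest spread of the 40 genes (median SD of 0.51 over the 8 groups) and was called in none of the 12 comparisons, with differences between the genotypes of 0.06 to 0.41.

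In fasted mice the balance between rises and falls was closer. On CTRL diet, 9 genes were higher and 8 lower in p110αhep−/− mice (12.5% and 12.3% of all genes), and the median difference was 0.04. The 8 lower genes were *Otc*, *Kmo*, *Haao*, *Prodh*, *Prodh2*, *Uroc1*, *Ftcd* and *Bckdha*, with differences between -0.38 and -0.16. On HFD, 15 were higher and 4 lower (19.1% and 17.7% of all genes), with a median of 0.13. Without replicate 1 of fasted p110αhep+/+ mice on HFD, which had the lowest mean over the 40 genes in its group, 15 genes were called there instead of 19, and *Gnmt*, *Mat1a* and *Sdsl* were lost beside *Aass*. *Gnmt* was also lost without replicate 3 of fed p110αhep−/− mice on HFD.

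Markers of other cells and zones moved with the genotype too. Of 4 cholangiocyte markers, 2 to 3 were lower in p110αhep−/− mice in each combination and none was higher, and their summed level was 8.28–9.19 in p110αhep+/+ and 7.88–8.77 in p110αhep−/− mice. Of 5 endothelial markers, 1 was higher and 1 lower in fed mice on each diet, the lower one being *Lyve1* (-1.13 on CTRL diet and -0.82 on HFD), and 2 were higher in fasted mice on CTRL diet and 4 on HFD, with summed levels of 13.40–14.14 in p110αhep+/+ and 13.90–14.26 in p110αhep−/− mice. Of 5 stellate cell markers, 1 was lower in each combination and 1 was higher in all but fasted mice on CTRL diet. *Col1a1*, a fibrillar collagen, was lower in fed mice on HFD (-1.79) and in fasted mice on CTRL diet (-0.99) and HFD (-2.32). Of 6 Kupffer cell markers, *Vsig4* was higher in fasted mice on CTRL diet (0.47) and HFD (0.50), and none was called in fed mice. Of 7 pericentral hepatocyte genes, 4 were higher in fed p110αhep−/− mice on HFD and none was lower, among them *Cyp1a2* (1.31), while the summed level was 18.74–18.92 in p110αhep+/+ and 18.71–18.99 in p110αhep−/− mice there. In fed mice on CTRL diet, 2 pericentral genes were higher and 0 lower. In fasted mice, 0 were higher and 1 lower on CTRL diet (*Rgn*, -0.43), and 2 were higher and 1 lower on HFD (*Rgn*, -0.26). Of 7 periportal genes that are not among the 40, 2 were higher and 2 lower in fed p110αhep−/− mice on either diet. *Pck1* was higher (1.43 on CTRL diet and 0.79 on HFD) and *Hsd17b13* lower (-0.32 and -0.82). In fasted mice, 0 periportal genes were higher and 1 lower on CTRL diet (*Cyp2f2*, -0.72), and 1 was higher and 2 lower on HFD. The part of these shifts in the results above was not tested.

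The next comparison asks what a 24 h fast did to the genes. In p110αhep+/+ mice on CTRL diet, 18 of the 40 genes rose and 3 fell, with 16% and 16.5% of all genes called higher and lower. The median change was 0.16, and 6 genes rose more than 1.5-fold: *Tat*, *Cth*, *Aass*, *Agxt*, *Oat* and *Got1*, beside 2.93% of all genes. The fed and fasted mice did not overlap for 13 of the 40 genes, against 11.8% of all genes. On HFD, 16 rose and 5 fell in p110αhep+/+ mice (13.8% and 14.7% of all genes), 2 of them by more than 1.5-fold (*Tat* and *Aass*), beside 2.24% of all genes that rose as much. In p110αhep−/− mice, 16 rose and 9 fell on CTRL diet (16.4% and 19.1%), while on HFD 7 rose and 14 fell (13.9% and 14.6%). The median was 0.11 on CTRL diet and -0.11 on HFD in p110αhep−/− mice, where the 4 changes above 1.5-fold on HFD were all falls: *Kynu* (-0.78), *Cbs* (-0.74), *Oat* (-0.65) and *Slc25a15* (-0.59). Of all genes, 3.14% fell as much there.

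Of the 40 genes, 5 rose with fasting in all 4 combinations of genotype and diet, beside 4.21% of all genes: *Tdo2*, *Bckdha*, *Dbt*, *Aass* and *Ahcy*. *Aass* rose most among them. The p110αhep+/+ mice had 14.29–15.03 fed and 15.30–15.77 fasted on CTRL diet and 14.33–14.70 and 14.69–15.73 on HFD, with rises of 0.84 ± 0.13 (SE, adjusted p = 2.7e-06) and 0.86 ± 0.13 (SE, adjusted p = 1.3e-06). The rise was 0.90 on CTRL diet and 0.42 on HFD in p110αhep−/− mice. *Tdo2*, the dioxygenase that opens the indole ring of tryptophan, rose by 0.55 and 0.42 in p110αhep+/+ and by 0.65 and 0.36 in p110αhep−/− mice on CTRL diet and HFD. *Tat* rose in 3 combinations. It was 14.48–15.13 in fed and 15.35–16.08 in fasted p110αhep+/+ mice on CTRL diet, without overlap, a rise of 0.88 ± 0.24 (SE, adjusted p = 0.0037). On HFD the rise of 0.60 ± 0.23 (adjusted p = 0.049) lay at the threshold once replicate 2 of fed p110αhep+/+ mice on CTRL diet was left out (adjusted p = 0.050, not called), and it was 0.12 and 0.98 within the washing batches. In p110αhep−/− mice on HFD the change of 0.62 was not called (adjusted p = 0.079), with 1 fasted mouse at 14.56 far below the other 5.

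Another 5 genes fell with fasting in 3 of the 4 combinations and rose in none, beside 4.88% of all genes: *Nags*, *Hgd*, *Haao*, *Prodh2* and *Cbs*. *Haao*, which makes the precursor of quinolinate, had changes of -0.36 and -0.17 in p110αhep+/+ mice on CTRL diet and HFD and -0.58 in p110αhep−/− mice on CTRL diet. The call on HFD was lost without replicate 1 of the fasted mice (-0.14, adjusted p = 0.094). *Nags* fell in p110αhep+/+ mice on CTRL diet (-0.31) and in p110αhep−/− mice on both diets (-0.26 and -0.30). *Hgd* fell most in p110αhep+/+ mice on HFD (-0.53), and *Prodh2* and *Cbs* in p110αhep−/− mice on HFD (-0.52 and -0.74). The other *Hgd* probe kept was called in none of the 3 falls, at -0.08 and -0.26 in p110αhep+/+ and -0.34 in p110αhep−/− mice, and the other *Haao* probe in 1 of 3, at -0.39 in p110αhep+/+ mice on CTRL diet, with -0.12 and -0.23 not called. In p110αhep−/− mice on HFD, the falls of *Gls2* (-0.37, adjusted p = 0.062) and *Otc* (-0.20, adjusted p = 0.11) were lost without replicate 6 of the fasted mice, and that of *Otc* and the rise of *Prodh* (0.28, adjusted p = 0.07) without replicate 3 of the fed mice. Of the 8 urea cycle genes, 1 rose and 1 fell with fasting in p110αhep+/+ mice on CTRL diet and 1 rose on HFD. In p110αhep−/− mice 2 rose and 2 fell on CTRL diet, and 1 rose and 3 fell on HFD, beside 13.9% and 14.6% of all genes. None changed more than 1.5-fold apart from the fall of *Slc25a15* named above. *Ass1*, *Asl*, *Sds* and *Ftcd* were called in no fasting comparison.

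Markers of zones and other cells moved with fasting too. Of the 7 pericentral genes, 2 rose and 3 fell in p110αhep+/+ mice and 0 rose and 4 fell in p110αhep−/− mice on CTRL diet, and the summed level of the 7 periportal genes in p110αhep+/+ mice on CTRL diet was 17.51–18.16 fed and 18.20–18.49 fasted. Of those 7, 2 rose and 1 fell, with a median change of -0.01, and *Pck1* rose by 2.18 while *Cdh1* changed by -0.98. In p110αhep−/− mice on CTRL diet, 1 periportal gene rose (*Pck1*, 0.76) and 3 fell (*Cdh1* -0.97, *Cyp2f2* -0.67 and *Ctsc* -0.37). On HFD, 2 periportal genes rose and 0 fell in p110αhep+/+ mice, and 0 rose and 1 fell in p110αhep−/− mice. On HFD, 3 pericentral genes rose and 1 fell in p110αhep+/+ mice, and 0 rose and 2 fell in p110αhep−/− mice, with *Lgr5* at -1.11. The stellate cell marker *Col1a1* fell in p110αhep+/+ mice on CTRL diet (-0.83) and in p110αhep−/− mice on both diets (-1.17 and -0.81), and *Lrat*, which stores retinol as esters, in p110αhep+/+ mice on both diets (-0.68 and -0.45) and in p110αhep−/− mice on HFD (-0.57). The cholangiocyte keratin *Krt19* fell in p110αhep+/+ mice on both diets (-0.58 and -0.49) and in p110αhep−/− mice on CTRL diet (-1.05). The endothelial marker *Lyve1* rose in p110αhep−/− mice (1.07 on CTRL diet and 0.82 on HFD), and 2 of 5 endothelial markers fell in p110αhep+/+ mice on HFD. Their part in the fasting results was not tested.

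The response to fasting depended on diet in p110αhep−/− mice. The effect of fasting on HFD minus that on CTRL diet was called for 13 of the 40 genes in p110αhep−/− mice, 2 higher and 11 lower, beside 3.66% of all genes higher and 4.24% lower. In p110αhep+/+ mice it was called for 2 genes, *Amdhd1* and *Bckdhb*, both lower, beside 1.51% of all genes. The median of this difference over the 40 genes was -0.20 in p110αhep−/− and -0.10 in p110αhep+/+ mice. Whether the 2 genotypes differ in it (a difference among all 3 factors) was not tested. The 13 genes were *Slc25a15*, *Slc25a13*, *Hgd*, *Kmo*, *Got1*, *Gpt*, *Agxt*, *Oat*, *Amdhd1*, *Cbs* and *Mat1a* on the lower side and *Haao* and *Prodh* on the higher. Leaving out any of the 4 arrays tried in turn gave between 10 and 14 genes. Without replicate 6 of fasted p110αhep−/− mice on HFD, *Hgd* (-0.32, adjusted p = 0.051) and *Mat1a* (-0.47, adjusted p = 0.054) were lost beside *Got1*, and without replicate 3 of fed p110αhep−/− mice on HFD *Prodh* was lost (0.47, adjusted p = 0.051).

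**Figure D4:**
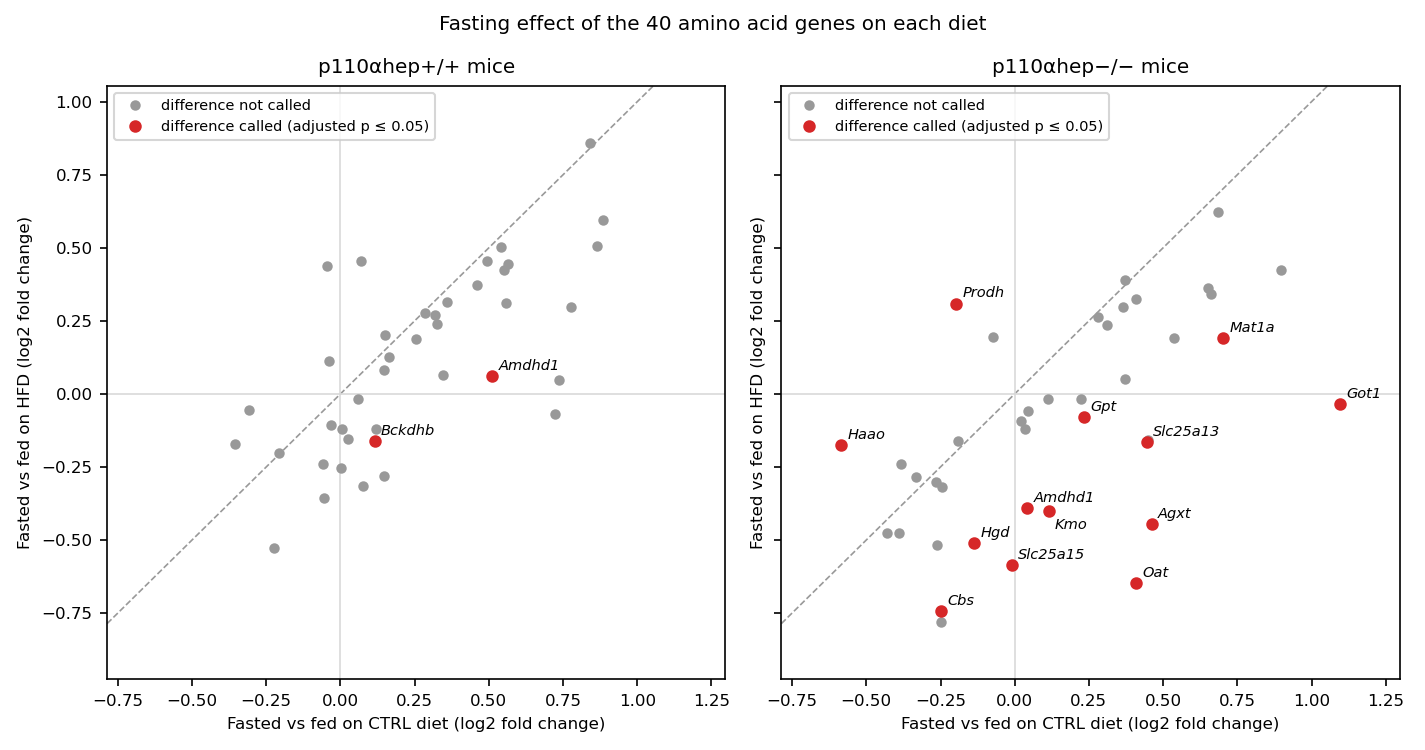
Log2 fold change of fasted against fed mice on CTRL diet (x axis) and on HFD (y axis) for the 40 genes (points), with p110αhep+/+ mice in the left and p110αhep−/− mice in the right panel. The dashed line marks equal effects, and red points mark genes whose 2 effects differed with an adjusted p of at most 0.05: 2 genes on the left and 13 on the right, of which 11 lie below the line.

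The 3 largest of these differences were those of *Got1*, *Oat* and *Agxt*. On CTRL diet, *Got1* was 14.13–14.74 (median 14.42) in fed and 14.83–15.94 (median 15.53) in fasted p110αhep−/− mice, without overlap. On HFD it was 14.47–15.56 (median 14.79) fed and 13.56–15.31 (median 14.83) fasted, with wide overlap. The effects were 1.10 ± 0.24 (SE, adjusted p = 0.00027) and -0.03, and their difference was -1.13 ± 0.35 (SE, adjusted p = 0.038). Without replicate 6 of fasted p110αhep−/− mice on HFD, the lowest mouse of that group, it was -0.93 and not called (adjusted p = 0.079). Within the washing batches it was -0.90 and -1.35, neither of them called with 3 mice a group. The p110αhep+/+ mice had 13.62–14.49 fed and 14.00–15.17 fasted on CTRL diet (0.72, called, with 0.18 and 1.15 within the washing batches) and 13.58–14.26 and 12.86–14.81 on HFD (-0.07, not called).

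*Oat*, the mitochondrial ornithine aminotransferase (probe at chr7:139749183-139749242, mm9), rose with fasting on CTRL diet in p110αhep+/+ mice and fell on HFD in p110αhep−/− mice. The p110αhep+/+ mice had 15.29–15.96 (median 15.71) fed and 16.28–16.56 (median 16.36) fasted on CTRL diet, without overlap, a rise of 0.74 ± 0.18 (SE, adjusted p = 0.0014). Fed p110αhep−/− mice on HFD had 15.59–16.85 (median 16.36) and fasted ones 15.39–16.17 (median 15.79), a difference of -0.65 ± 0.20 (SE, adjusted p = 0.014). On CTRL diet p110αhep−/− mice had 14.82–15.96 and 15.65–16.49 (0.41, not called), and on HFD p110αhep+/+ mice had 15.43–16.34 and 14.86–16.53 (0.05, not called). The difference between the diets in p110αhep−/− mice was -1.06 ± 0.27 (SE, adjusted p = 0.011), with -0.79 and -1.22 within the washing batches.

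*Agxt* (probe at chr1:95041901-95041959, mm9) showed opposite called effects of fasting on the 2 diets in p110αhep−/− mice. On CTRL diet it was 14.85–15.19 (median 15.01) in fed and 15.35–15.71 (median 15.51) in fasted mice, higher without overlap after fasting, at 0.46 ± 0.11 (SE, adjusted p = 0.00061). On HFD it was 15.23–15.82 (median 15.43) in fed and 14.68–15.28 (median 15.02) in fasted mice, lower after fasting with a small overlap, at -0.45 ± 0.12 (SE, adjusted p = 0.0034). In p110αhep+/+ mice *Agxt* rose on both diets, with 14.55–15.02 fed and 15.25–15.69 fasted on CTRL diet (0.78) and 14.50–14.92 and 14.37–15.23 on HFD (0.30). The difference between diets was -0.91 ± 0.16 (SE, adjusted p = 0.00013) in p110αhep−/− mice, and the difference between genotypes on HFD was -0.74 ± 0.15 (SE, adjusted p = 0.003). The first was -0.65 and -1.20 within the washing batches. *Slc25a13*, given above, had the smallest adjusted p of the 13, with a difference of -0.61 ± 0.10 (SE, adjusted p = 2.4e-05) and values of -0.67 and -0.61 within the washing batches.

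The response to fasting also differed between the genotypes for a few genes. The effect of fasting in p110αhep−/− minus that in p110αhep+/+ mice was lower for 3 of the 40 genes on CTRL diet (*Otc*, *Hal* and *Amdhd1*), beside 2.2% of all genes, and for 5 on HFD (*Kmo*, *Gpt*, *Agxt*, *Hal* and *Amdhd1*), beside 1.69% of all genes. None was higher on either diet. On HFD, 9 genes were called without replicate 1 of fasted p110αhep+/+ mice on HFD. *Hal* and *Amdhd1*, which act in the first and the third step of histidine breakdown, were called on both diets. In p110αhep+/+ mice, *Hal* (probe at chr10:92979135-92979194, mm9) was 13.37–13.93 (median 13.61) fed and 13.85–14.38 (median 14.13) fasted on CTRL diet, and 13.13–13.45 (median 13.33) fed and 13.40–13.91 (median 13.86) fasted on HFD. It rose there by 0.49 and 0.46. In p110αhep−/− mice it was 13.82–14.47 (median 14.29) fed and 13.45–14.13 (median 13.86) fasted on CTRL diet, a fall at -0.33 that was not called in the other *Hal* probe kept (-0.22, adjusted p = 0.27). On HFD it was 13.82–14.17 (median 13.95) fed and 13.06–14.02 (median 13.71) fasted in p110αhep−/− mice, and the change of -0.29 was not called. The genotypes thus differed in fed mice (0.63 on CTRL diet and 0.62 on HFD, both called) and by -0.20 and -0.12, not called, in fasted mice. The differences between the fasting effects were -0.83 ± 0.16 (SE, adjusted p = 0.0025) on CTRL diet and -0.74 ± 0.17 (SE, adjusted p = 0.0079) on HFD. *Kmo*, which hydroxylates kynurenine, was 14.09–14.51 in fed and 14.25–14.60 in fasted p110αhep+/+ mice on HFD, and 14.01–14.61 and 13.93–14.25 in p110αhep−/− mice, with a difference of -0.59 ± 0.11 (SE, adjusted p = 0.00058).

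**Figure D5:**
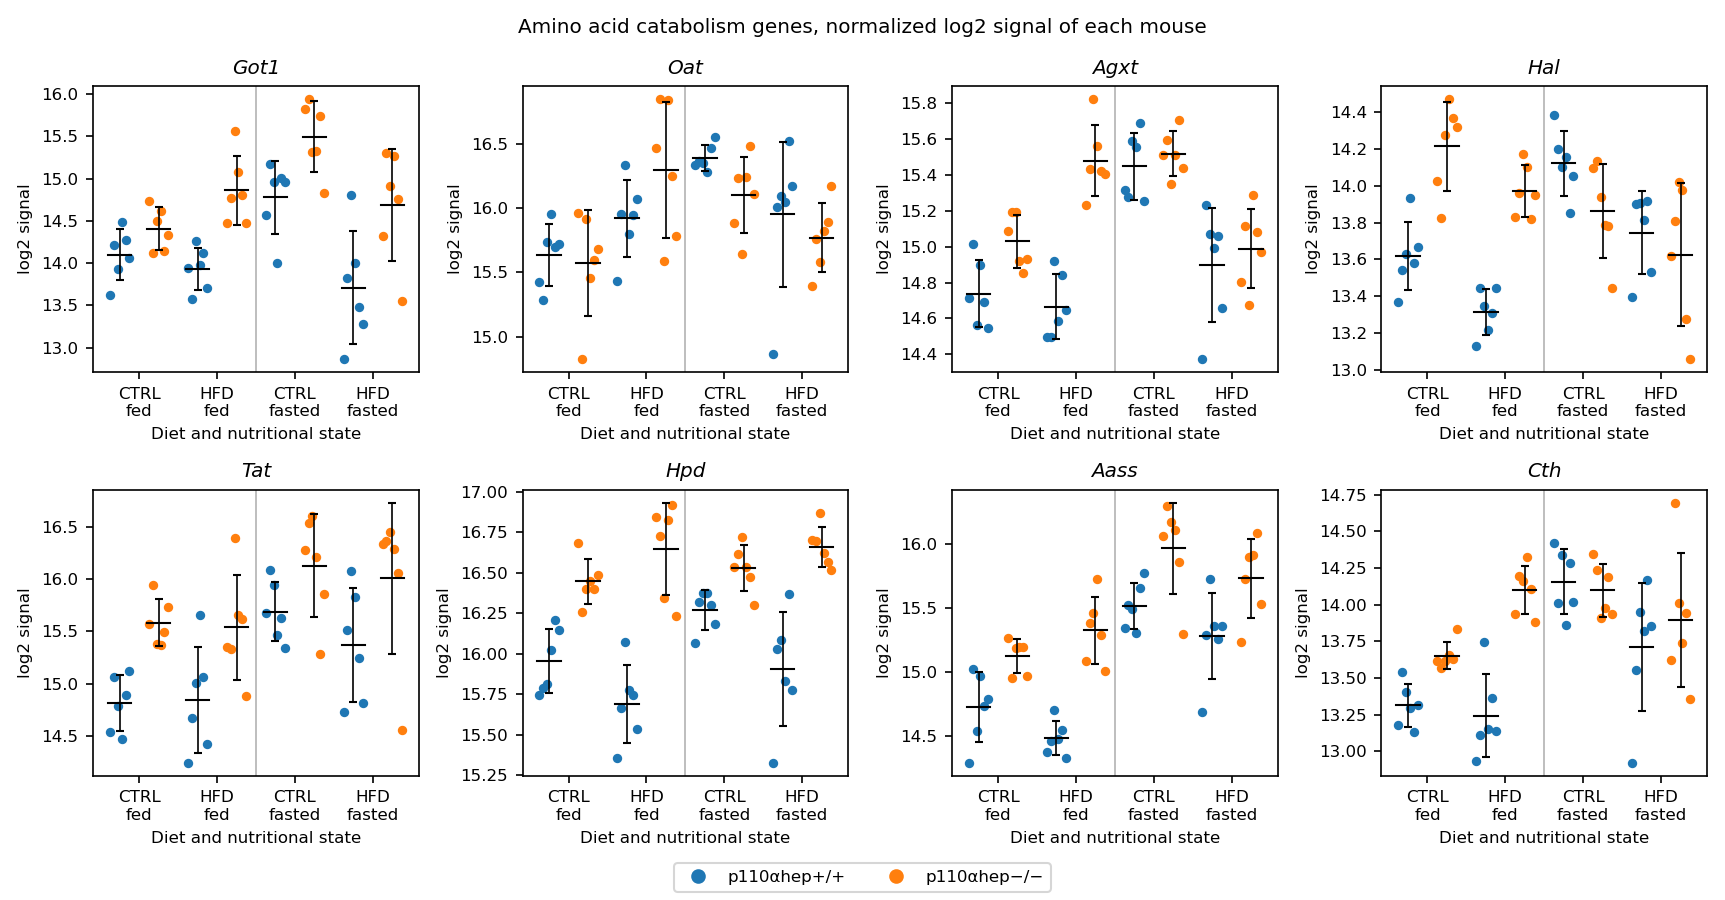
Normalized log2 signal of each mouse (points) for 8 amino acid catabolism genes by diet and nutritional state, with p110αhep+/+ mice in blue and p110αhep−/− mice in orange, lines for means and bars for SDs of 6 mice. For *Agxt* in p110αhep−/− mice, the fasted mice lie at 15.35 to 15.71 on CTRL diet and at 14.68 to 15.28 on HFD.

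The promoters of the 4 genes with the largest called differences between fasting effects are shown, since these genes moved apart by diet or genotype. Each line gives the 250 bases before the start of the gene on its own strand, from RefSeq (GRCm38.p6): chr19:43524606-43524855 (minus strand) for *Got1*, chr7:132576399-132576648 (minus strand) for *Oat*, chr1:93134990-93135239 (plus strand) for *Agxt* and chr10:93488518-93488767 (plus strand) for *Hal*. Capitals mark matches, on either strand, to the motifs searched.
Got1: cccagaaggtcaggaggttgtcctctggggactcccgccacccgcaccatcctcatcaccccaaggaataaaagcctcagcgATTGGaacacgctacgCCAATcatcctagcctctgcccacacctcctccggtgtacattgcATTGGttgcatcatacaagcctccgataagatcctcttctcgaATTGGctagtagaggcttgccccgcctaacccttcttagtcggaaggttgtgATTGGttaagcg
Oat: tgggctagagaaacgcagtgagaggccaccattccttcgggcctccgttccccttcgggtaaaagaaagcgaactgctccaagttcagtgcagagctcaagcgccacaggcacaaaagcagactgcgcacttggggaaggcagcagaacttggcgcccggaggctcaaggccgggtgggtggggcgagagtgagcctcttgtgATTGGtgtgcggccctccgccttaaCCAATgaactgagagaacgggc
Agxt: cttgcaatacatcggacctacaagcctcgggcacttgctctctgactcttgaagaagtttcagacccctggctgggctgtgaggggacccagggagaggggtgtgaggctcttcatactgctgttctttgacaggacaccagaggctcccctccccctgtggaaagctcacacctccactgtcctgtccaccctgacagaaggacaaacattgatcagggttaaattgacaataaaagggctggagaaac
Hal: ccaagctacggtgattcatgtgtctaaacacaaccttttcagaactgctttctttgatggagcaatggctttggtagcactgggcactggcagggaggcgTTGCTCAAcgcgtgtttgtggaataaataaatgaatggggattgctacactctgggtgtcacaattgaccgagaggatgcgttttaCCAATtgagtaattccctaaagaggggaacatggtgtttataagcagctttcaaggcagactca
The motifs searched were a FOXO core (GTAAACA), an insulin response sequence (CAAAACAA), the short site of the cyclic AMP response element (TGACG), a C/EBP motif (TTGCNNAA, where N is any base) and a CCAAT box (CCAAT), the last added after the sequences had been seen. Promoters were found for 29 of the 40 genes, with 31 windows. A gene was counted when any of its windows matched, while the percentages of windows count each window by itself. The FOXO core was in 0 of 29 and in 3.17% of 32851 promoter windows of this length, the insulin response sequence in 2 (*Ahcy* and *Amdhd1*) and 2.21%, and the cyclic AMP site in 3 (*Aass*, *Ftcd* and *Slc25a13*) and 17.8%. The C/EBP motif was in 4 (*Aass*, *Hal*, *Hgd* and *Prodh2*), beside 9.56% of windows. The CCAAT box was in 15 of 29 promoters (51.7%), beside 33.8% of windows, and *Got1* held 5 matches, *Oat* 2, *Hal* 1 and *Agxt* none. Among the genes with no entry found were *Mat1a*, *Cps1*, *Asl*, *Kynu*, *Gpt*, *Cth*, *Sds*, *Sdsl*, *Dbt* and *Gls2*.

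The last comparison asks what HFD did to the genes. In fed p110αhep+/+ mice, 1 gene was higher (*Bckdhb*, 0.46) and 6 were lower on HFD, beside 12.4% and 11.7% of all genes. Urea cycle genes among the lower ones were *Cps1* (-0.82), *Nags* (-0.33) and *Asl* (-0.31), the last not called without replicate 2 of fed p110αhep+/+ mice on CTRL diet (-0.27, adjusted p = 0.078). *Ahcy* (-0.35) and *Dbt* (-0.25) were lower as well. In fed p110αhep−/− mice, 10 genes were higher and 1 lower (5.82% and 6.38% of all genes). *Oat* rose most, by 0.77 ± 0.19 (SE, adjusted p = 0.0062), with 0.60 and 0.82 within the washing batches, followed by *Kmo* (0.49), and *Sdsl* was the gene that fell (-0.43). *Bckdhb* was higher on HFD in all 4 combinations, the 1 gene of the 40 with that pattern, beside 0.508% of all genes. In the other *Bckdhb* probe kept, the difference in fasted p110αhep+/+ mice was 0.12 and not called (adjusted p = 0.12). Another 9 genes were called in no diet comparison, beside 58.1% of all genes (*Ass1*, *Tat*, *Kynu*, *Sds*, *Gpt2*, *Uroc1*, *Aass*, *Mat1a* and *Bhmt*).

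In fasted p110αhep+/+ mice, 16 genes were lower on HFD and 1 was higher, with 6.97% of all genes lower and 8.96% higher. The median difference was -0.20 beside -0.02 over all genes. *Got1* differed most, with 14.00–15.17 (median 14.96) on CTRL diet and 12.86–14.81 (median 13.65) on HFD, overlapping, and a difference of -0.94 ± 0.23 (SE, adjusted p = 0.0036), with -1.11 and -0.82 within the washing batches. *Asl* (-0.55), *Gls2* (-0.54) and *Agxt* (-0.52) came next. In the other *Asl* probe kept, the difference was -0.40 and not called (adjusted p = 0.36). Without replicate 1 of the fasted p110αhep+/+ mice on HFD, 14 genes were called, and *Cps1* (-0.33), *Cth* (-0.30), *Hal* (-0.27) and *Hpd* (-0.27) were no longer called. In fasted p110αhep−/− mice, 4 genes were higher and 7 lower (5.65% and 5.18% of all genes). *Got1* was lower by more than 1.5-fold there too (-0.78 ± 0.25 SE, adjusted p = 0.033), though not called without replicate 6 of the mice on HFD (-0.59, adjusted p = 0.11). *Hgd* was lost there as well (-0.18, adjusted p = 0.13).

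Markers of zones and other cells also moved with diet. In p110αhep+/+ mice, *Col1a1* was higher on HFD (1.29 fed and 1.83 fasted), as were the collagen-binding proteoglycan *Dcn* (0.35 and 0.38) and the pericentral genes *Glul* (0.39 and 0.56) and *Lgr5* (0.60 and 0.75). Of the 7 pericentral genes, 2 were higher and 1 lower in fed p110αhep+/+ mice, the lower one being *Cyp1a2* (-0.58). In fasted p110αhep+/+ mice, 2 were higher and 0 lower. Of the 7 periportal genes, 2 were higher and 3 lower in fed p110αhep+/+ mice, with *Cdh1* at -1.44. In fed p110αhep−/− mice none was higher and 1 was lower, *Cyp2f2* at -0.69, and none was called in fasted mice of either genotype. In fasted p110αhep+/+ mice the endothelial markers *Clec4g* (-0.47) and *Kdr* (-0.26) were lower. In p110αhep−/− mice, 2 of the 7 pericentral genes were higher on HFD when fed and 5 when fasted, among them *Cyp1a2* (1.02), and none was lower. The part of these shifts in the diet results was not tested.

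The effect of HFD differed between genotypes for few of the 40 genes. In fed mice the difference was called, in the direction of higher in p110αhep−/− mice, for *Cps1*, *Nags* and *Dbt*, beside 0.962% of all genes, and 1 to 6 genes were called when an array was left out (1 without replicate 2 of fed p110αhep+/+ mice on CTRL diet, 6 without replicate 1 of fasted p110αhep+/+ mice on HFD and 5 without replicate 3 of fed p110αhep−/− mice on HFD). In fasted mice it was called for *Otc*, *Haao* and *Dbt* also higher (2.08% of all genes), and for 0 genes without replicate 1 of fasted p110αhep+/+ mice on HFD. *Dbt* was also lost there without replicate 6 of fasted and *Haao* without replicate 3 of fed p110αhep−/− mice on HFD. The effect of HFD in fasted p110αhep−/− mice was 0.33 for *Otc* and 0.35 for *Haao*. In the other probe kept of each gene it was -0.06 (adjusted p = 0.82) and -0.08 (adjusted p = 0.75), neither of them called. *Dbt* was called in both states, at 0.42 ± 0.12 (SE, adjusted p = 0.041) in fed and 0.39 ± 0.12 (SE, adjusted p = 0.044) in fasted mice, the first of them lost without replicate 2 of fed p110αhep+/+ mice on CTRL diet.

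For 19 of the 40 genes, 21 further probes were kept. Of 109 called values that could be compared with such a probe, 33 were not called in it, in 13 genes: *Asl*, *Otc*, *Hgd*, *Haao*, *Hal*, *Amdhd1*, *Bckdhb*, *Bhmt*, *Gls2*, *Gpt*, *Gpt2*, *Sdsl* and *Uroc1*. Of the 109, 6 had the opposite sign in it, and 0 of these were called there. They were the genotype differences of *Asl* in fed mice on HFD, of *Gpt* in fasted mice on HFD and of *Haao* in fasted mice on CTRL diet, and the diet differences of *Asl* in fed p110αhep+/+ mice and of *Haao* and *Otc* in fasted p110αhep−/− mice.

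The lists also held 74 other measured genes of amino acid catabolism, 22 amino acid transporters and 18 regulators. In fed mice on HFD, 16 of the 74 other catabolism genes were higher and 13 lower in p110αhep−/− mice, beside 16.6% and 16.3% of all genes, so their share was near that of all genes. On CTRL diet 6 were higher and 18 lower, beside 10.9% and 10.6%, where the 40 genes had 15 and 3. In fasted mice, 4 were higher and 31 lower on CTRL diet (all genes 12.5% and 12.3%), and 11 higher and 19 lower on HFD (all genes 19.1% and 17.7%). Fasting raised 22 and lowered 12 of them in p110αhep+/+ mice on CTRL diet, and raised 7 and lowered 25 in p110αhep−/− mice on HFD, beside 16% and 16.5%, and 13.9% and 14.6%, of all genes. On HFD, 32 of the 74 were higher and 2 lower in fed p110αhep−/− mice than on CTRL diet, beside 5.82% and 6.38% of all genes. The largest rise with genotype was that of *Acmsd*, which diverts tryptophan breakdown from NAD synthesis towards complete oxidation. It was 9.33–10.80 (median 9.71) in fed p110αhep−/− and 6.60–7.57 (median 7.37) in fed p110αhep+/+ mice on HFD, without overlap, at 2.44 ± 0.23 (SE, adjusted p = 3.4e-11). Fasting lowered *Acmsd* in p110αhep−/− mice on CTRL diet (-1.66). *Ccbl2*, a kynurenine aminotransferase, was higher in fasted p110αhep−/− mice on HFD (1.48) and was lowered by fasting in p110αhep+/+ mice on HFD (-0.86). *Csad*, which makes the precursor of taurine, was lower in fed p110αhep−/− mice on HFD (-1.73 ± 0.21 SE, adjusted p = 1.9e-08) and rose with fasting there (1.60).

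Of the 22 transporters, 10 were higher and 6 lower in fed p110αhep−/− mice on HFD, beside 16.6% and 16.3% of all genes, with *Slc6a9*, a glycine transporter, lowest (-1.51 ± 0.12 SE, adjusted p = 9.2e-13). *Slc43a1*, which carries large neutral amino acids, was lower on HFD in fed p110αhep+/+ mice (-1.47 ± 0.15 SE, adjusted p = 1.1e-09). Of the 18 regulators, 10 rose and 1 fell with fasting in p110αhep+/+ mice on CTRL diet, 10 and 2 on HFD, and in p110αhep−/− mice 8 and 2 on CTRL diet and 7 and 1 on HFD. Of all genes, fasting raised 16% and lowered 16.5%, 13.8% and 14.7%, 16.4% and 19.1%, and 13.9% and 14.6% in the same order. *Foxo1*, a transcription factor that insulin restrains, rose in all 4 combinations, by 0.84 and 0.71 in p110αhep+/+ and 0.67 and 0.99 in p110αhep−/− mice on CTRL diet and HFD, and was named after its values were seen. *Onecut1*, a liver transcription factor, was lower on HFD in fed p110αhep+/+ mice (-2.13 ± 0.48 SE, adjusted p = 0.00096) and rose with fasting on HFD (1.42). *Ddit4*, an inhibitor of mTORC1 signalling, was higher on HFD in fed p110αhep+/+ mice (0.82). In fasted p110αhep−/− mice on HFD, 7 regulators were higher than in p110αhep+/+ mice and 0 lower, beside 19.1% and 17.7% of all genes.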

How the data were processed

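RNA of 48 livers was hybridised to one-colour Agilent mouse arrays, scanned and quantified with Feature Extraction 10.10.1.1. The deposited scanner files hold the spot intensity, and the authors also deposited a table of normalized log2 values, used as an alternative. Median signals, with outlier spots left out, were put on the log2 scale and spots of a probe averaged. Probes well above background on at least 5 of 6 arrays of a group were kept (30793 of 56605), the washing batch was removed with the groups protected, and arrays were quantile normalized. Each array had 50.1% to 57.4% of probes above background, and the number of arrays limits the precision. Group means were fitted with limma 3.58.1 (R 4.3.3) with array weights, and p-values were adjusted over all probes kept (Benjamini-Hochberg) in each of 18 comparisons, of which 6 are differences between effects. The fit was tested on simulated data. Fold changes come from the weighted fit and differ slightly from differences of group means. The genes and lists were chosen with earlier results of these data known. Values in all groups are given for core urea cycle enzymes, for up to 4 genes with the largest called change over 1.5-fold with fasting, genotype or diet, and for up to 6 genes with the largest called interactions. From the wider lists, up to 2 rises and 2 falls were named for each of fasting, genotype and diet. The values of 1 of the 40 genes and of 1 gene of the wider lists are not reported here. The authors' description does not state their filter. Alternatives covered signal, background, filter, batch, slide, replicate number, weights, probe choice, groups in the fit, threshold and arrays left out, 3 of the last chosen after seeing the data.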

Additional observations from a re-analysis of the deposited data

Results flagged for a closer look

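Among 14 genes in 8 groups each (112 groups of 6 mice), 4 mice stood far from the other 5 of their group, where chance flags about 1 in 20 groups. *Tat* was 14.56 in replicate 6 of fasted p110αhep−/− mice on HFD, while the others had 16.05–16.45. *Oat* was 14.86 in replicate 1 of fasted p110αhep+/+ mice on HFD, while the others had 16.01–16.53. *Cth* was 13.83 in replicate 6 of fed p110αhep−/− mice on CTRL diet, above the others at 13.57–13.65, and *Otc* was 13.73 in replicate 2 of the same group, below the others at 13.92–13.98.

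Differences between effects, each tested as an interaction in limma over all probes kept, singled out 7 genes. In p110αhep−/− mice, the effect of fasting on HFD minus that on CTRL diet was -1.13 for *Got1*, -1.06 for *Oat*, -0.91 for *Agxt* and -0.61 for *Slc25a13*. The effect of fasting in p110αhep−/− minus that in p110αhep+/+ mice was -0.83 on CTRL diet and -0.74 on HFD for *Hal*, and on HFD -0.74 for *Agxt* and -0.59 for *Kmo*. The effect of HFD in fed p110αhep−/− minus that in fed p110αhep+/+ mice was 0.68 for *Cps1*. The value for *Got1* was not called without replicate 6 of fasted p110αhep−/− mice on HFD (-0.93), and that for *Cps1* was not called without replicate 2 of fed p110αhep+/+ mice on CTRL diet (0.62). Values within the washing batches had the same sign for all 9 differences, with 3 mice a group.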

How the results depend on the processing

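Of 243 called values of the 40 genes over the 18 comparisons, those keeping direction and call numbered 243 with slide as a random block and with probes above background on all arrays, 240 with normexp background correction and with the deposited log2 values, 236 with washing batch as a term, 229 without batch correction, 223 with the mean over a gene's probes, 210 without array weights, 204 with the processed signal, 196 without the filter and 189 with only the groups of the comparison in the fit. Within washing batch 1 and batch 2 alone, with 3 mice a group, they numbered 111 and 87, and 2 changed sign, both in batch 2 and neither called there (*Gpt* for the genotype in fed mice on HFD and *Mat1a* for the genotype in fasted mice on HFD). The main counts were, for fasting, 21 genes in p110αhep+/+ mice on CTRL diet, 21 on HFD, 25 in p110αhep−/− mice on CTRL diet and 21 on HFD. For the genotype they were 18 and 26 in fed mice and 17 and 19 in fasted mice on CTRL diet and HFD. For diet they were 7 and 17 in fed and fasted p110αhep+/+ mice and 11 in both states in p110αhep−/− mice.

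In the same order, the counts over a fold change of 1.5 were 6, 2, 5 and 4 for fasting, 3, 12, 1 and 5 for the genotype and 1 each for diet, and for the differences between effects 4 (diet by fasting in p110αhep−/− mice), 0 (in p110αhep+/+ mice), 1 and 3 (genotype by fasting on CTRL diet and HFD) and 1 and 0 (genotype by diet in fed and fasted mice). In batch 1 alone they were 9, 5 and 10 for fasting (p110αhep+/+ mice on CTRL diet, HFD and p110αhep−/− mice on HFD), 2 and 9 for the genotype on CTRL diet (fed and fasted), 4, 9, 7 and 0 for diet, and 3 for diet by fasting in p110αhep−/− mice and 0 for the 5 other differences. In batch 2 alone they were 10, 14 and 10 for fasting (p110αhep+/+ mice on HFD, then p110αhep−/− mice on CTRL diet and HFD), 7, 10, 1 and 8 for the genotype, 3, 1, 1 and 3 for diet, 2 for diet by fasting in p110αhep−/− mice, 1 for genotype by fasting on HFD and 0 for the others. The cause of these changes was not tested, but each batch holds fewer mice.

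The small counts of the differences between effects moved, as did some counts for diet. Diet by fasting in p110αhep+/+ mice, 2 genes, became 4 with only the groups of the comparison, 0 without weights or filter and 1 without batch correction or with the processed signal. Genotype by fasting on HFD, 5 genes, became 3 with only the groups of the comparison, without weights or without the filter. Genotype by diet in fasted mice, 3 genes, became 0 with only the groups of the comparison, without the filter, without batch correction or with batch as a term, and 1 with the mean over probes or the processed signal. Genotype by diet in fed mice, 3 genes, became 5 with the mean over probes or normexp, and 1 without the filter or without batch correction. The effect of diet in fed p110αhep−/− mice, 11 genes, became 7 without the filter and 6 with the processed signal, and in fed p110αhep+/+ mice it rose from 7 to 13 with the processed signal. In fasted p110αhep−/− mice it fell from 11 to 6 with only the groups of the comparison. Leaving out 1 of 4 arrays in turn gave 1 to 6 genes for genotype by diet in fed mice, 0 to 3 in fasted mice and 5 to 9 for genotype by fasting on HFD. The cause was not tested.

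With the replicate number as a block, 230 of the 243 values were kept, diet by fasting in p110αhep+/+ mice and genotype by diet in fed mice both gave 1 gene, and no other count moved by over 1.5 times. The numbers did not pair the mice: the median correlation of same-numbered arrays was 0.012, 39 of 168 pairs were above 0.1, and 9 of 48 arrays correlated best with their own number.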

Other observations

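The mean over the 40 genes of each gene's deviation from its mean in fed p110αhep+/+ mice on CTRL diet summarises the level in each mouse. It is on the log2 scale and is given with no test. Fed mice on HFD had 0.12 to 0.40 (median 0.34) in p110αhep−/− and -0.23 to 0.11 (median -0.08) in p110αhep+/+ mice, without overlap. In fasted mice on CTRL diet it was 0.06 to 0.44 (median 0.31) and 0.15 to 0.31 (median 0.27), with wide overlap. It was 0.01 to 0.26 (median 0.16) and -0.16 to 0.09 (median 0.02) in fed mice on CTRL diet, and in fasted mice on HFD -0.11 to 0.37 (median 0.21) and -0.34 to 0.24 (median 0.07).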
